A study of Mus musculus with 44 samples.

Results

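The placental Prl, Psg and Ceacam gene clusters are 54 protein-coding genes of 21951 in the GENCODE vM21 mouse annotation (mm10, GRCm38): 26 Prl genes, 13 Psg genes and 15 Ceacam genes. They were chosen by symbol alone, as Prl itself, Prl with a number, a letter and a number, Psg with a number, and Ceacam with a number. The peaks described are those whose summit lies in a member gene or within 50 kb of one, each counted once. These are 82 of the 59698 CTCF peaks listed for Setdb1 KO embryonic stem cells (ESCs) and 65 of the 44241 listed for WT ESCs. Both libraries were CTCF ChIP-seq of formaldehyde-fixed mouse TT2 ESCs (C57BL/6/CBA F1) with a CTCF antibody from Active Motif. The Setdb1 KO ESCs carry a conditional allele of Setdb1, an H3K9 methyltransferase gene, and received 800 nM 4-OHT for 4 days before they were collected on day 6. WT ESCs are labelled WT with no further treatment named. The paper's methods describe a WT clone and induction of the conditional KO with 4-OHT, and name no other parental line. The WT ESCs may thus be the same clone without 4-OHT. Each list comes from 1 library, so neither a spread between replicates nor a p-value is given, and further libraries of both conditions were not analysed here.

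CTCF is a zinc finger protein that binds a long DNA motif at insulators and at the anchors of chromatin loops. Prolactin, encoded by Prl, is the pituitary hormone of lactation, and in rodents its gene was copied into a large family whose other members, among them the placental lactogens and the proliferins, are made mainly by trophoblast and decidua. The Psg genes encode secreted immunoglobulin-like glycoproteins of the trophoblast. They belong with the Ceacam genes to the carcinoembryonic antigen family, which also holds adhesion receptors of epithelia such as Ceacam1 and a protein of the inner ear, Ceacam16. The peak lists hold no expression, so the word placental is taken from knowledge of the families and was not tested on these cells.

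Members of 1 chromosome at most 200 kb apart were joined, which gave 10 clusters. The interior of a cluster runs from the start of its first member to the end of its last, and its edges are the 50 kb outside. Interior lengths below count only sequence within 50 kb of a member. On chromosome 13 lie the Prl2c group (Prl2c3, Prl2c2 and Prl2c5, chr13:12790816-13191923) and the Prl cluster (23 genes from Prl to Prl5a1, chr13:27057570-28151611). The other 8 are on chromosome 7. They are Ceacam15-Ceacam9 (chr7:16671331-16726132), Psg16-Psg29 with Ceacam3 between them (chr7:17074040-17215760), Ceacam5-Ceacam12 (chr7:17713238-18077986), Psg18-Psg17 (chr7:18345422-18821607), Ceacam16-Ceacam20 (chr7:19852097-19991104), Ceacam10 (chr7:24777206-24784657), Ceacam1-Ceacam2 (chr7:25461707-25539857) and Ceacam18 (chr7:43634707-43649295). Psg18-Psg17 holds 11 genes and Ceacam5-Ceacam12 holds 5.

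The sequences printed here are from summits with a CTCF motif, which 45 of the 82 Setdb1 KO peaks had. The 20 bases below are the best match to the CTCF motif within 50 bp of a summit, read from the mm10 genome on the strand of the motif, with the 14-base core in capitals. They are shown for the shared peak of the Prl cluster, for strong edge peaks of the other clusters, and for the KO-only peak with the most fragments.
Prl cluster, 10.3 kb from Prl7a1, chr13:27623069-27623088, + strand: aggCCACCAGGGTGCTGaga
Prl2c group, high-coordinate edge, chr13:13237648-13237667, + strand: tggCCAGAAGAGGGCATcca
Psg16-Psg29, at the start of Psg16, chr7:17073982-17074001, + strand: tgtCCACTAGGTGGCGAgct
Psg18-Psg17, high-coordinate edge, chr7:18828844-18828863, + strand: tagCCTCTAGGGGGCACtgg
Ceacam16-Ceacam20, low-coordinate edge, chr7:19843806-19843825, - strand: tagCCTCCAGGTGGCGCcag
Ceacam16-Ceacam20, low-coordinate edge, chr7:19849765-19849784, - strand: ctgCCAGGAGAGGGCGCagg
Ceacam15-Ceacam9, low-coordinate edge, chr7:16628299-16628318, + strand: tctCCCATAGGTGGCGCtgt
Ceacam10, high-coordinate edge, chr7:24817685-24817704, + strand: tgcCCAGTAGGGGGAACccg
Ceacam18, high-coordinate edge, chr7:43678712-43678731, + strand: tggCCACCAGGGGGCTCcag
Bcl3, KO-only, chr7:19820532-19820551, + strand: aggCCATTAGAGGGCGCcag

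With the lists as deposited, the KO-only share of the clusters was near that of the whole list. Of their 82 Setdb1 KO peaks, 61 had an overlap of 1 bp or more with a WT peak and are called shared, and 21 did not and are called KO-only, which is 25.6% (Wilson 95% interval 17.4 to 36.0, counting error only). In the whole Setdb1 KO list 28.8% of peaks were KO-only, a share within that interval. Of the 65 WT peaks, 3 had no overlapping Setdb1 KO peak, against 3.22% of the whole WT list. When both lists were cut to equal length by -log10 q, 5 of 62 Setdb1 KO peaks of the clusters were KO-only (8.06%) beside 11.7% of the whole list. The 482 Setdb1 KO peaks in the same windows around olfactory receptor genes had a KO-only share of 37.3% (33.1 to 41.7), and the 122 around keratin genes one of 24.6% (17.8 to 32.9). The interval of the Prl, Psg and Ceacam clusters overlaps both.

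The height of a peak is given here as its pileup, the number of fragments over the summit, which was worked back from the listed enrichment and p. Where exactly 1 peak of each library met, at 60 sites, the pileup was higher in Setdb1 KO than in WT at 54, lower at 4 and equal at the rest. The median ratio of Setdb1 KO to WT pileup was 1.35, with quartiles of 1.14 and 1.58. Over 41869 such sites of the whole lists the median was 1.36, with quartiles of 1.17 and 1.61, so that the clusters sit at the level of the genome. A ratio of at least 2 was reached at 5 of the 60 sites, against 9.39% of all sites, and 4 of the 60 were higher in WT, against 7.41% of all sites. Summed over the 60 sites the pileups were 3553 fragments in Setdb1 KO against 2668 in WT, a ratio of 1.33 (exact Clopper-Pearson 95% interval 1.27 to 1.4). At single sites the intervals are wide. They lay above 1 at 15 sites, held 1 at 45, and held the genome median at 56. The same counts were not made over the whole lists, so they do not set the clusters apart.

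**Figure D1:**
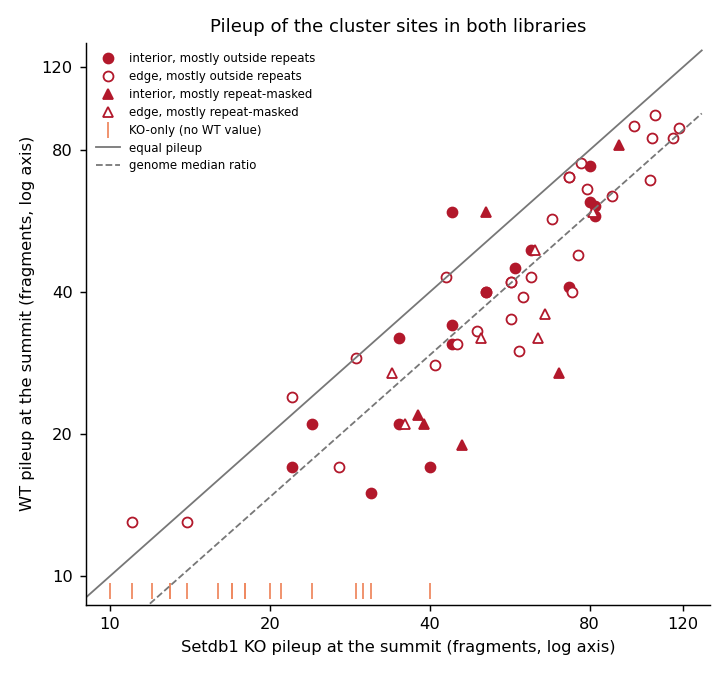
Pileup of each cluster site in Setdb1 KO (horizontal log axis, fragments) against WT (vertical log axis, fragments), with filled symbols for the interior, open symbols for the edges, triangles for summits in mostly repeat-masked sequence and ticks at the bottom for the 21 KO-only peaks. Of the 60 paired sites 54 lie below the line of equal pileup, around the dashed line of the genome median ratio of 1.36, and the KO-only ticks lie between 10 and 40 fragments.

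Summed over the clusters, CTCF peaks were less dense inside than on the edges, but single interiors ranged widely. The interiors held 37 Setdb1 KO peaks and 29 WT peaks in 2465 kb, and the edges held 45 Setdb1 KO peaks and 36 WT peaks in 1000 kb. That is 1.5 Setdb1 KO peaks per 100 kb inside (exact Poisson 95% interval 1.06 to 2.07) and 4.50 per 100 kb on the edges (3.28 to 6.02), beside 2.19 per 100 kb over the genome. The intervals of interior and edge do not overlap, but they cover counting error only and not the spread between clusters. The Prl cluster, with few peaks, makes up 1017 of the 2465 kb of interior but 100 of the 1000 kb of edge. Words of 32 bases that occur more than once in the genome have no single place to align. They made up 36.7% of the interiors over their full length, 29.8% of the edges and 16.3% of a genome sample. The Prl2c group had the highest shares, 66.6% inside and 80.6% on its edges. The effect of such words on the densities was not tested. Few of the peaks belonged to the Prl genes, whose windows held 3 Setdb1 KO peaks in 1444 kb, or 0.208 per 100 kb (0.0428 to 0.607). The windows of the Psg and Ceacam genes held 79 in 2020 kb, or 3.91 per 100 kb (3.10 to 4.87). With the Psg and Ceacam genes alone, the interiors had 2.87 per 100 kb (2.00 to 3.99) and the edges 5.5 (4.00 to 7.38), so that the intervals just miss each other and the interior value lies above that of the genome. Inside single clusters the Setdb1 KO density reached 10.9 per 100 kb in Ceacam15-Ceacam9, above its edges at 7, and 7.91 in Ceacam16-Ceacam20. It was 0 within the windows of Ceacam5-Ceacam12. The KO-only shares of both places overlapped in their intervals, since 29.7% of interior peaks (17.5 to 45.8) and 22.2% of edge peaks (12.5 to 36.3) were KO-only. Of the 45 edge peaks, 32 had a gene of no member family as their nearest protein-coding gene.

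**Figure D2:**
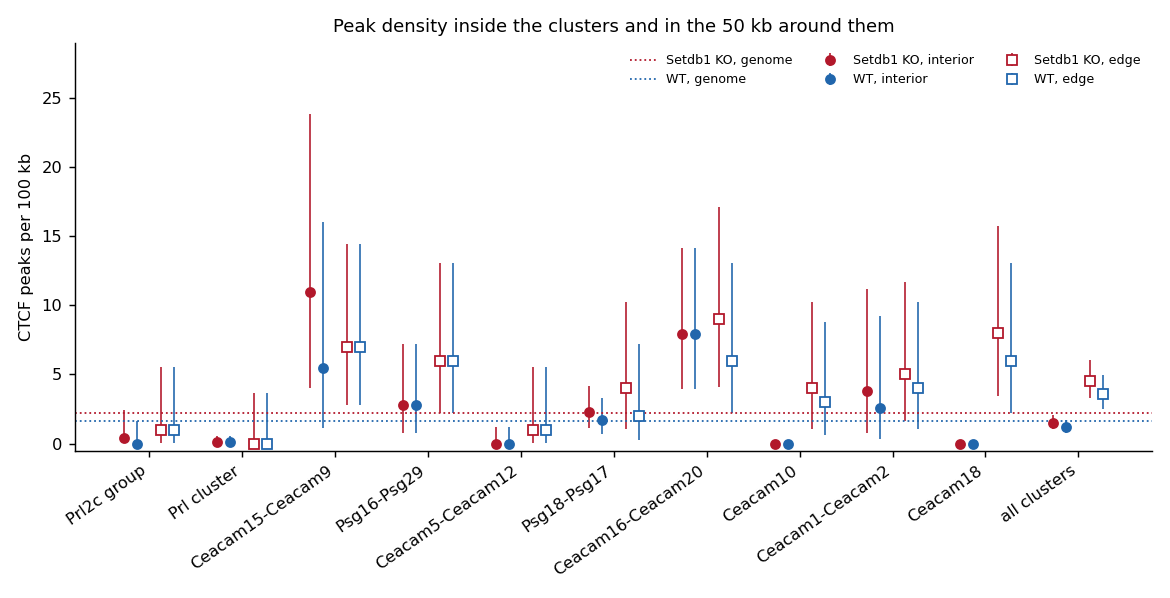
CTCF peaks per 100 kb (vertical axis) in the interior (filled circles) and on the 50-kb edges (open squares) of each cluster, in Setdb1 KO (red) and WT (blue), with exact Poisson 95% intervals and dotted lines for the genome. The interiors of the single-gene clusters Ceacam10 and Ceacam18 hold no peak and are drawn without an interval, the Prl cluster lies near 0 in both libraries, and over all clusters the Setdb1 KO value is 1.5 inside and 4.50 on the edges.

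The Prl cluster was nearly free of CTCF. Over its 1094 kb and 23 genes, from Prl to the placental prolactin paralogue Prl5a1, 2 peaks were listed in Setdb1 KO against 2 in WT, at the same places, and only the first lies within 50 kb of a member. It stood between Prl7b1 and Prl7a1, 10.3 kb from Prl7a1 (chr13:27622881-27623241), with 35 fragments in Setdb1 KO against 21 in WT (ratio 1.67, interval 0.944 to 3.01). The second lay between Prl2c1, a proliferin-type gene, and Prl4a1, 87.5 and 70.9 kb from them (chr13:27945057-27945537), with 67 fragments in Setdb1 KO against 48 in WT (ratio 1.4, interval 0.949 to 2.07). Both are shared sites whose intervals hold 1, and the edges of the cluster held 0 peaks in either library. In Setdb1 KO the stretch without a summit was 688 kb and held the 15 genes from Prl to Prl7b1, with the placental lactogen genes Prl3d1 and Prl3b1 among them. It ended at low coordinates in a KO-only peak of 12 fragments, 122 kb from Prl. In WT the stretch was 1509 kb and held the same 15 genes. Stretches at least as long made up 0.288% of all gaps between neighbouring Setdb1 KO summits and 0.118% of those between WT summits, where the median gaps were 16.6 and 21.4 kb. Among 2345 windows of the same length set side by side along the genome, 94 (4.01%) held at most 2 Setdb1 KO peaks and 252 (10.7%) at most 2 WT peaks, with medians of 20 and 14.

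No Prl gene had a CTCF summit inside it, within 1 kb of a transcription start or within 10 kb in the Setdb1 KO list. In that list the 26 genes were 10.3 to 324 kb from the nearest summit, with a median of 116 kb. The nearest were Prl7a1 at 10.3 kb, Prl7b1 at 12.5 kb, Prl2c3 at 32.6 kb, Prl7a2 at 35.5 kb, Prl8a1 at 40.9 kb and Prl2c5 at 45.7 kb. These 6 are the only Prl genes within 50 kb of a Setdb1 KO summit, and the farthest was Prl3a1 at 324 kb. For Prl itself the distance was 122 kb in Setdb1 KO and 557.8 kb in WT. The KO-only peak of 12 fragments is its nearest in Setdb1 KO. Of all protein-coding genes, 50.9% had a Setdb1 KO summit inside them, 24.1% one within 1 kb of a start and 90.7% one within 50 kb.

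The letters of the Prl cluster held few matches to the CTCF motif, and so did those of some other clusters. Matches at least as good as the median of the shared peaks with a motif numbered 22827 in the genome, or 0.867 per 100 kb, and 75.1% of them lay in a Setdb1 KO peak. In the 1094 kb of the Prl cluster and its edges there were 0. The Prl2c group and Ceacam1-Ceacam2 with their edges, and the interiors of Ceacam5-Ceacam12, Psg18-Psg17 and Ceacam18, also held 0. Of these, the interior of Psg18-Psg17 had 11 Setdb1 KO peaks. At the lower threshold that was used to call a motif under a summit, the interior of the Prl cluster held 25 matches, or 2.29 per 100 kb, of which 2 were in a Setdb1 KO peak. The genome held 6.29 per 100 kb, with 25% in a Setdb1 KO peak. The interiors of the Prl2c group, Ceacam5-Ceacam12 and Psg18-Psg17 held 1.99, 1.64 and 4.41 per 100 kb, and those of the other clusters more than the genome. The authors kept only reads that aligned to 1 place, and a word of 32 bases that occurs more than once has no single place. Such words made up 27.5% of the interior of the Prl cluster, beside 16.3% of the genome in a sample of every 1000th word. By gene the share was from 0.103% in Prl7b1 to 45.7% in Prl7c1 within the Prl cluster, and it was 0.960% in Prl. The genes of the Prl2c group had higher shares, 86.2% in Prl2c3, 87.7% in Prl2c2 and 56.4% in Prl2c5. How far repeated words lower the number of listed peaks was not tested.

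**Figure D3:**
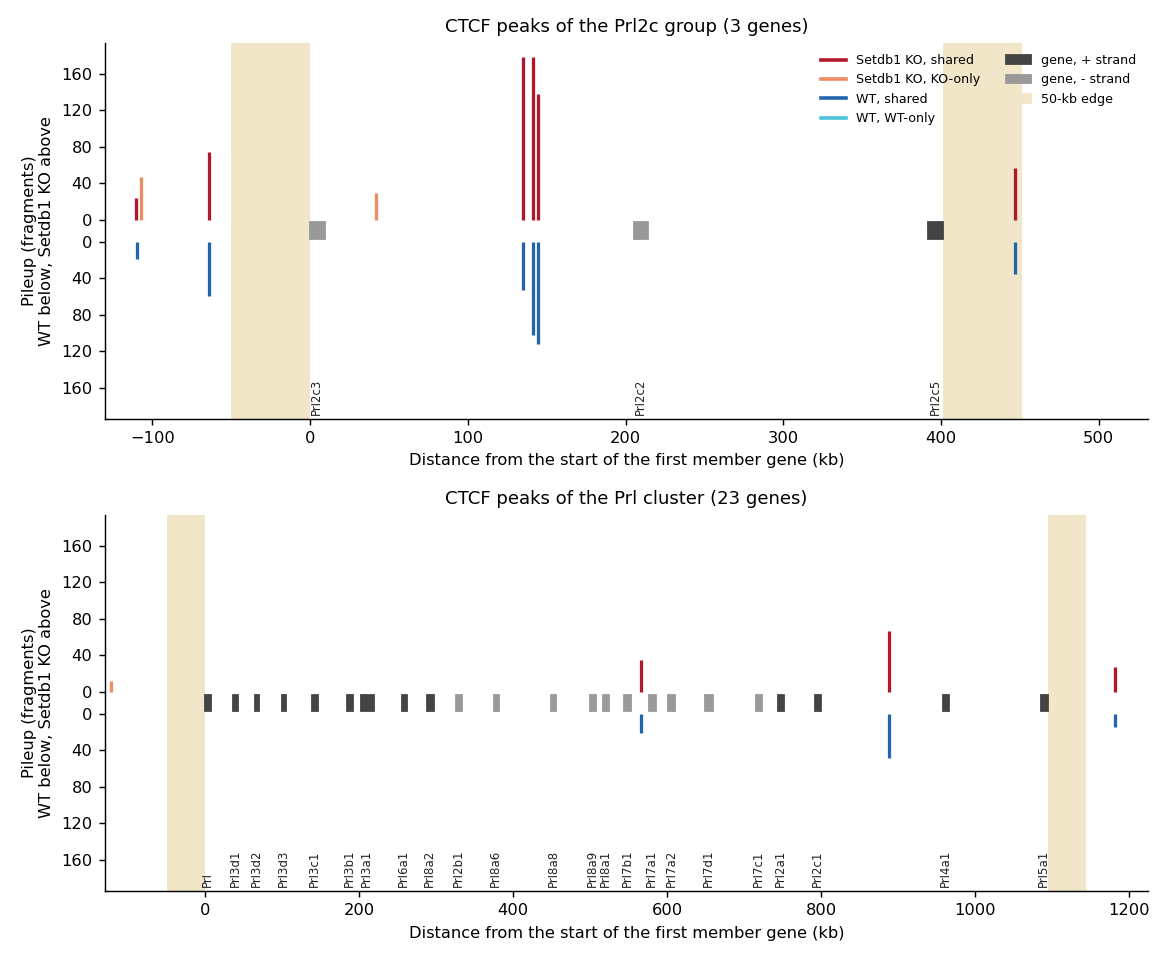
CTCF peaks of the Prl2c group (top) and the Prl cluster (bottom), drawn as vertical bars of pileup in fragments, Setdb1 KO above and WT below the genes, against the distance in kb from the start of the first member gene, with the 50-kb edges shaded. Between the first and the last of the 23 genes of the Prl cluster stand 2 peaks in each library, and 3 tall peaks stand between Prl2c3 and Prl2c2.

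The Prl2c group, 3 proliferin-type genes spread over 401 kb, had 2 Setdb1 KO peaks in its windows and 1 in WT. Repeated words, which have no single place to align, made up 66.6% of its interior and 80.6% of its edges. How far they lower these counts was not tested. The KO-only peak was 32.6 kb from Prl2c3 (chr13:12832559-12832799) with 29 fragments, but over a background of 10.6 and hence with a fold enrichment of 2.58, and the sequence at its summit was wholly repeat-masked. The shared peak lay 45.7 kb beyond Prl2c5 (chr13:13237348-13238016), with 57 fragments in Setdb1 KO against 35 in WT (ratio 1.63, interval 1.05 to 2.56). The KO-only peak is thus a weak one by enrichment, and the interval of the shared one lies above 1 but holds the genome median. Between Prl2c3 and Prl2c2, more than 50 kb from either and so outside the windows, stood 3 peaks with more Setdb1 KO fragments than any peak of the windows, though not with more fold enrichment (27.0, 15.4 and 14.5, against up to 36.3 in the windows). The first (chr13:12925521-12926021) had 178 fragments in Setdb1 KO against 53 in WT (ratio 3.36, interval 2.46 to 4.65). The second (chr13:12931520-12932497) had 178 in Setdb1 KO against 102 in WT (ratio 1.75, interval 1.36 to 2.25). The third (chr13:12935109-12935518) had 138 in Setdb1 KO against 112 in WT (ratio 1.23, interval 0.953 to 1.60). Neighbouring sites within 10 kb thus ranged from a ratio near the genome median to one that 0.745% of all sites reached. The first and second are copies of one another, 89.0% identical over 145 bp, and their motifs share the same core.
Prl2c group, ratio 3.36, chr13:12925718-12925737, + strand: ccaTCACTAGATGGCGCcag
Prl2c group, ratio 1.75, chr13:12932007-12932026, + strand: ccaTCACTAGATGGCGCtgg

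The 13 Psg genes were all within 50 kb of a Setdb1 KO summit, 8 of them within 10 kb, with a median distance of 7.53 kb. In the Psg16-Psg29 cluster all 10 peaks of either library were shared, 4 in the interior and 6 on the low-coordinate edge, and none was KO-only. The strongest stood 50 bp before the start of Psg16 (chr7:17073784-17074361), with 106 fragments in Setdb1 KO against 95 in WT (ratio 1.12, interval 0.838 to 1.49). It is the only Psg gene apart from Psg19 with a summit within 1 kb of a start. The 80 bases before the annotated start of Psg16 (chr7:17073960-17074039, + strand) hold the motif, with its 14-base core in capitals, and the 20 bases of the motif end 39 bp before the start.
Psg16: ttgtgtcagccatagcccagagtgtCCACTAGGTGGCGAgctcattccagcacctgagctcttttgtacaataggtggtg
The interior peaks of this cluster all lay in introns. In Psg16 the summit of chr7:17091163-17091667 had 62 fragments in Setdb1 KO against 49 in WT, and that of chr7:17076082-17076541 had 46 in Setdb1 KO against 19 in WT. The second, in wholly repeat-masked sequence, had the second highest ratio among the 60 paired sites of the windows, 2.42 (1.39 to 4.38). In Ceacam3 the intron peak had 58 fragments in Setdb1 KO against 45 in WT, and in Psg29 it had 80 in Setdb1 KO against 62 in WT. Both ratios were 1.29, below the genome median. On the edge, 4 peaks lay in or at Ppp5c, a phosphatase gene, and Hif3a, a gene of the hypoxia-inducible factor family, which are no members.

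Psg18-Psg17, the main Psg cluster, had 15 Setdb1 KO peaks and 10 WT peaks, and 6 of the 15 were KO-only (40%, interval 19.8 to 64.3). The peaks were unevenly spread. At the low coordinates, Psg18, Psg28 and Psg26 were 80.1, 79.7 and 27.5 kb from the nearest WT summit, and the WT list held no summit for 246 kb, up to a site 7.99 kb from Psg25. In Setdb1 KO that stretch held 5 KO-only peaks, 4 of them in the windows, and all were low. Outside the windows, 56.5 kb before Psg18, a peak had 22 fragments. Those in the windows had 24 fragments 36.8 kb from Psg18 (chr7:18308515-18308791), 18 fragments 25.8 kb on its other side, 17 fragments 25.8 kb from Psg28 and 12 fragments 16.3 kb from Psg26. From Psg21 to Psg17 the sites were mostly shared, beside KO-only peaks of 11 and 10 fragments near Psg20 and Psg17. The strongest was 22.8 kb from Psg22 (chr7:18749728-18750204), with 80 fragments in Setdb1 KO against 74 in WT. In an intron of Psg20 a site had 57 in Setdb1 KO against 42 in WT (chr7:18679756-18680346). The promoter site of Psg19, with its summit 774 bp before the start (chr7:18799054-18799485), had 44 fragments in Setdb1 KO against 59 in WT. Its ratio of 0.746 (0.493 to 1.12) was the lowest of all cluster sites, with an interval that holds 1 but not the genome median. Over the 9 paired sites of this cluster the pileups summed to a ratio of 1.17 (1.02 to 1.34), beside a genome ratio of summed pileups of 1.38. The upper bound lies below that value, but the interval covers counting error only and not the spread between sites.

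**Figure D4:**
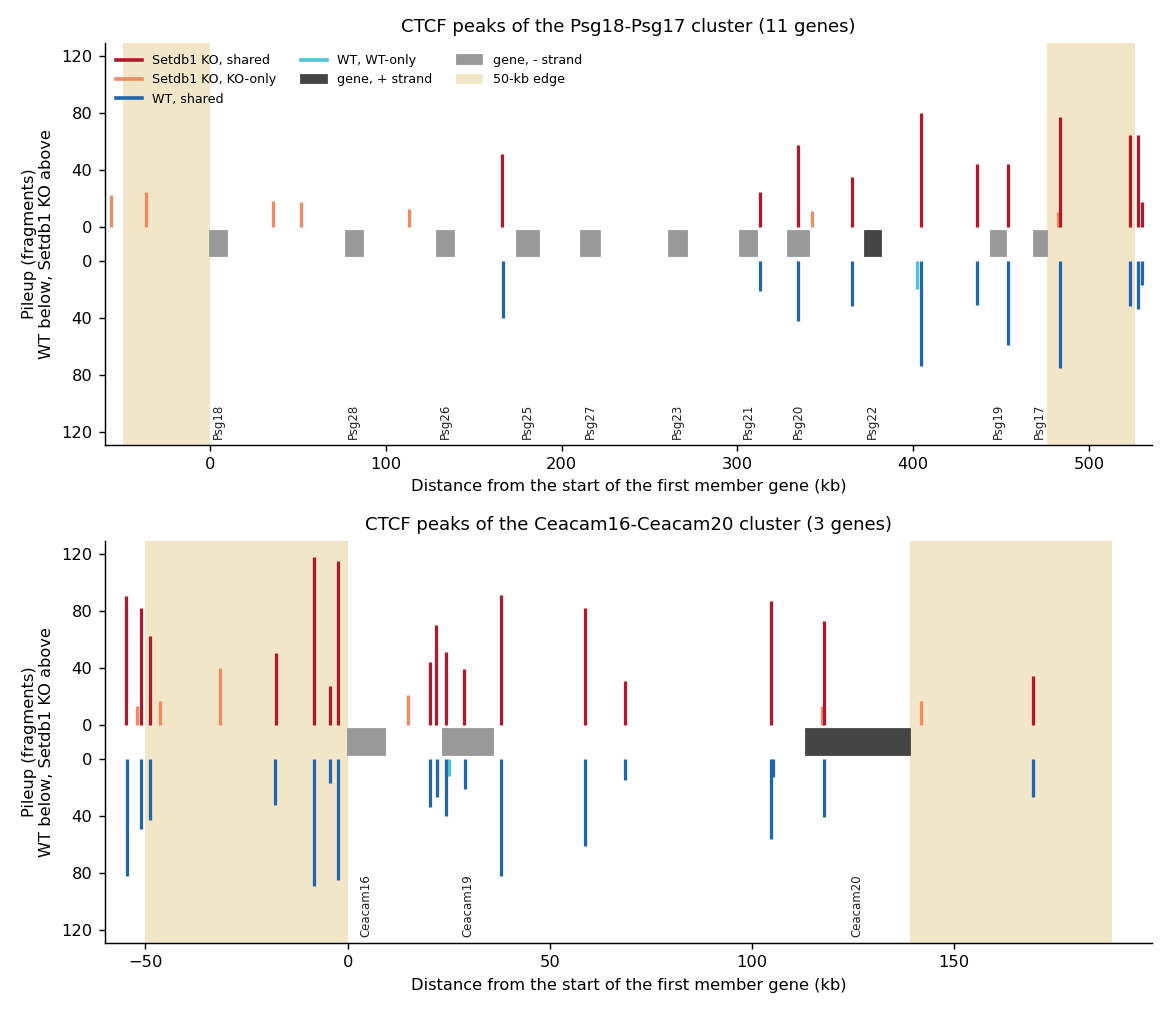
CTCF peaks of the Psg18-Psg17 cluster (top) and the Ceacam16-Ceacam20 cluster (bottom), drawn as vertical bars of pileup in fragments, Setdb1 KO above and WT below the genes, against the distance in kb from the start of the first member gene, with the 50-kb edges shaded. Around Psg18, Psg28 and Psg26, up to a shared site between Psg26 and Psg25, only KO-only peaks of 12 to 24 fragments are seen. That shared site has 51 fragments in Setdb1 KO against 40 in WT. The low-coordinate edge of Ceacam16-Ceacam20 carries the 2 tallest Setdb1 KO peaks of all windows, with 118 and 115 fragments.

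The Ceacam genes differed among themselves. Ceacam5, Ceacam14, Ceacam11 and Ceacam13 had no summit within 50 kb, and their cluster, Ceacam5-Ceacam12, held 1 shared peak in the windows, 23.0 kb beyond Ceacam12 (chr7:18100801-18101190), with 60 fragments in Setdb1 KO against 39 in WT. A stretch of 516 kb without a summit covered Ceacam5 and Ceacam14 in both libraries, and 0.609% of Setdb1 KO gaps were as long. Outside the windows, 3 Setdb1 KO peaks of 14 to 25 fragments lay at the start or in introns of Gm5155. This cluster resembled the Prl cluster in its density, at 0.245 Setdb1 KO peaks per 100 kb (0.00620 to 1.36).

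The Ceacam16-Ceacam20 cluster had the most peaks, 20 in Setdb1 KO and 17 in WT in 239 kb. Its Setdb1 KO density of 8.37 per 100 kb (5.11 to 12.9) was close to that of Ceacam15-Ceacam9, 8.40 (4.47 to 14.4). Its low-coordinate edge held the peaks with the most Setdb1 KO fragments of all windows. At chr7:19843046-19844158 there were 118 fragments in Setdb1 KO against 89 in WT (ratio 1.33, interval 0.998 to 1.77). The other strong site, 2.35 kb from Ceacam16, had 115 fragments in Setdb1 KO against 85 in WT (ratio 1.35, interval 1.01 to 1.81). Both had their motif on the - strand. The highest ratio among the 60 paired sites of the windows was 1.70 kb from Ceacam19 (chr7:19873836-19874377), with 70 fragments in Setdb1 KO against 27 in WT (ratio 2.59, interval 1.64 to 4.21), in wholly repeat-masked sequence. At the start of Pvr, a nectin-like adhesion receptor gene that lies within the cluster, a site had 31 fragments in Setdb1 KO against 15 in WT (ratio 2.07, interval 1.08 to 4.12). The stronger peak at another start of Pvr had 82 in Setdb1 KO against 61 in WT (ratio 1.34, interval 0.953 to 1.90). Inside Ceacam20 an intron site (summit chr7:19969913) had 73 in Setdb1 KO against 41 in WT, and a KO-only peak of 13 fragments lay in the same gene. Inside Ceacam19 there were 2 shared sites, in an exon with 51 in Setdb1 KO against 40 in WT, and in an intron with 39 in Setdb1 KO against 21 in WT. A WT-only peak of 12 fragments lay in the same gene.

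Ceacam1, an adhesion receptor of epithelia and immune cells, its close paralogue Ceacam2, and Ceacam10 each had a shared site shortly before the start. Before Ceacam1 it had 82 fragments in Setdb1 KO against 58 in WT (ratio 1.41, interval 0.998 to 2.01). Before Ceacam2 it had 74 in Setdb1 KO against 40 in WT (ratio 1.85, interval 1.24 to 2.79), and before Ceacam10 it had 59 in Setdb1 KO against 30 in WT (ratio 1.97, interval 1.25 to 3.16). The intervals of the last 2 lie above 1, and all 3 hold the genome median. Another site, 3.39 kb from Ceacam1, had 40 in Setdb1 KO against 17 in WT (ratio 2.35, interval 1.30 to 4.43). A KO-only peak of 30 fragments stood 527 bp before the start of Ceacam2 (chr7:25540265-25540532), the only KO-only peak within 1 kb of a start of a member, and a weaker one of 18 fragments lay in an intron of Ceacam2.

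Ceacam15-Ceacam9 held 13 Setdb1 KO peaks and 10 WT peaks. Its strongest, on the low-coordinate edge 13.3 kb from Arhgap35, had 104 fragments in Setdb1 KO against 69 in WT (ratio 1.51, interval 1.10 to 2.07). Inside, 3 of 6 Setdb1 KO peaks were KO-only, with 31, 18 and 17 fragments, 19.5, 13.7 and 14.1 kb from Ceacam15. The peak of 51 fragments in Setdb1 KO had 59 in WT (ratio 0.864, interval 0.582 to 1.28). On the high-coordinate edge the strongest peak was at the start of Ap2s1, a clathrin adaptor gene, with 79 in Setdb1 KO against 66 in WT. Around Ceacam18, 8 Setdb1 KO peaks and 6 WT peaks were all on the edges, the strongest 438 bp from the tRNA thiolation gene Ctu1, with 97 in Setdb1 KO against 90 in WT.

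The KO-only peaks were low. Their pileups in Setdb1 KO ran from 10 to 40 fragments with a median of 17, while the 61 shared peaks ran from 11 to 118 with a median of 58. In the whole list the medians were 18 for KO-only and 55 for shared peaks. At most 20 fragments were found at 15 KO-only peaks and at 2 shared peaks. The strongest KO-only peak, with 40 fragments and a fold enrichment of 8.43, lay in an intron of Bcl3, a gene of the IkappaB family 31.6 kb from Ceacam16 (chr7:19820344-19820801). The next were the peak of 31 fragments inside Ceacam15-Ceacam9 and the one of 30 before Ceacam2. The 3 WT-only peaks were as low, with 20 fragments 20.3 kb from Psg22, 12 in Ceacam19 and 11 on the low-coordinate edge of Ceacam15-Ceacam9. A CTCF motif lay within 50 bp of the summit of 8 of the 21 KO-only peaks (38.1%, interval 20.8 to 59.1) and of 37 of the 61 shared peaks (60.7%, interval 48.1 to 71.9). In the whole list the shares were 35% of KO-only and 63.7% of shared peaks, both within these intervals. Over all 82 the share was 54.9% (44.1 to 65.2), beside 55.4% of the whole Setdb1 KO list.

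Sites in repeats carried the higher ratios, in the clusters as elsewhere. Among peaks whose summit sequence was mostly repeat-masked, 9 of 22 were KO-only (40.9%, interval 23.3 to 61.3), against 12 of 60 others (20.0%, interval 11.8 to 31.8). In the whole list the shares were 40.4% and 24%. At paired sites the median ratio was 1.71 for 13 mostly masked sites and 1.29 for the other 47, beside 1.52 and 1.32 in the whole list. A ratio of at least 2 was reached at 3 of the 13 and 2 of the 47. The groups in the clusters are small, and their quartiles (1.29 to 1.86 and 1.10 to 1.47) overlap.

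Since these families grew by duplication, sites that are copies of one another can be set side by side. The sequence within 100 bp of each summit was searched in the cluster regions for alignments of at least 100 bp. Of the 82 Setdb1 KO peaks 37 had a copy, and 23 of these were not mostly repeat-masked. With the peaks between the windows they gave 8 sets of sites in which the same 20 bases could be followed. The same search was not made for other peaks of the list. The count of 37 thus has no share beside it and does not set the clusters apart. Substitutions give the base of the first sequence printed for a set, the position counted from 1 at the 5′ end of the 20 bases, and the base of the copy. Repeated words are given for the sequence around the 20 bases.

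**Figure D5:**
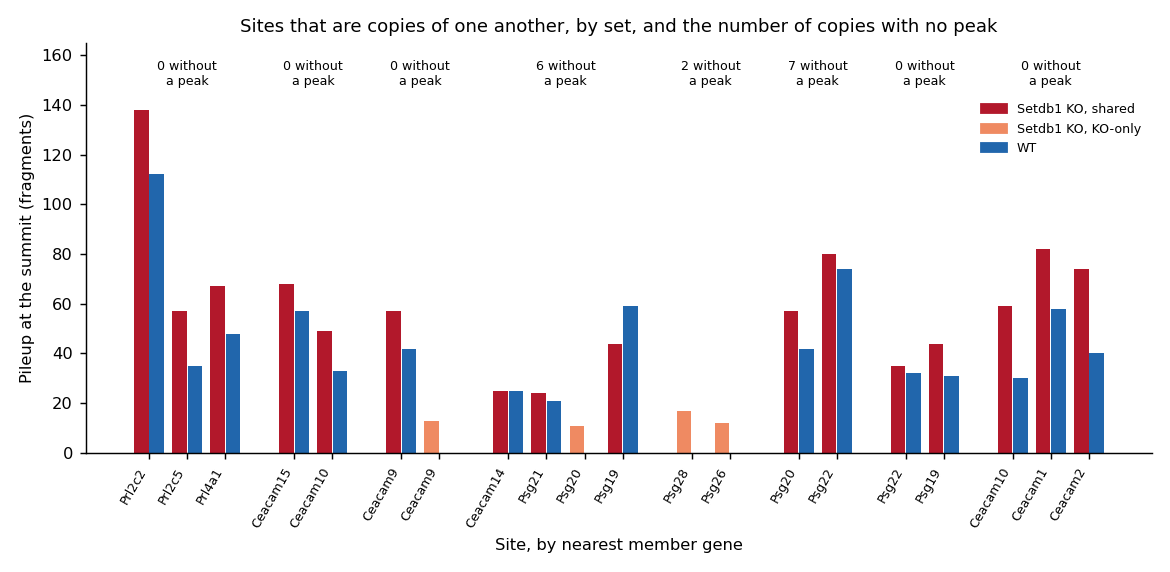
Pileup in fragments (vertical axis) of the copied sites, grouped by set and named by the nearest member gene, in Setdb1 KO (red for shared, orange for KO-only) and WT (blue), with the number of copies that have no peak above each set. The set with the Prl2c genes has the highest pileups, and in the Psg sets 6, 2 and 7 copies have no peak.

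A set in the main Psg cluster shows sites that differ by few bases. Peaks stood on 2 of 9 copies, the one 22.8 kb from Psg22 and the one in the intron of Psg20, 80 and 57 fragments in Setdb1 KO and 74 and 42 in WT. The 7 copies without a peak lie inside Psg18, Psg28, Psg26, Psg25, Psg27, Psg23 and Psg21. Relative to the site near Psg22, all 7 have C17A, the last base of the core, and neither site with a peak in this set has it. Elsewhere in the clusters an A as the last core base stands under peaks, as at Psg16, Psg19, Ceacam1 and Ceacam2. At Psg16 and Ceacam2 these had 106 and 74 fragments in Setdb1 KO. Whether this base sets the sites with a peak apart was not tested. The copies in Psg27 (T4A and C17A) and in Psg25 (G2T, C7G and C17A) lie in sequence of which 0% and 2.96% is repeated words. The copies in Psg23 and Psg21 (C3A and C17A) lie in sequence of which 100% is repeated words, where the lack of a listed peak says nothing about binding.
Near Psg22, with a peak, chr7:18750008-18750027, + strand: tgcTCACTAGATGGTGCagt
In Psg20, with a peak, chr7:18680022-18680041, - strand: tgcACACTAGATGGTGCagt
In Psg27, no peak, chr7:18559537-18559556, - strand: tgcACACTAGATGGTGAagt
In Psg25, no peak, chr7:18523811-18523830, - strand: ttcTCAGTAGATGGTGAagt
In Psg18, no peak, chr7:18348295-18348314, - strand: tgcTCCCTAGATGGCAAagt
The copies in Psg28 and Psg26 read as the one in Psg18, and have 71.0% and 78.1% repeated words.

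Before the starts of Psg genes lay another set, with peaks at 4 of 10 copies. The site of Psg19 had 44 fragments in Setdb1 KO against 59 in WT, that of Psg21 had 24 in Setdb1 KO against 21 in WT, that of Psg20 was KO-only with 11, and that at the start of Gm5155 had 25 in each. They lay 789, 1746 and 1716 bp before the starts of Psg19, Psg21 and Psg20. The copy of Psg22, 1747 bp before its start, has G10T relative to Psg19 and no peak, and 0% of it is repeated words. The copy of Psg27, 1751 bp before its start, has C7A, G13A and G16A and no peak. The copy of Psg29 (A1T, A4T, T18A and T20A) keeps the core but for 1 base and has no peak. G10T and G13A occur only at copies without a peak in this set, while A4T, C7A and G16A also occur at sites with one, since the site of Gm5155 has A1T, A4T, C7A and G16A. What sets the sites with a peak apart was not tested.
Psg19, with a peak, chr7:18799299-18799318, - strand: agaACTCCAGGGGGCGAtat
Psg21, with a peak, chr7:18658461-18658480, - strand: agaACTACAGGGGGCGAtat
Psg20, KO-only, chr7:18687891-18687910, - strand: agaACTACAGGGGGCAAtat
Psg22, no peak, chr7:18716333-18716352, + strand: agaACTCCATGGGGCGAtat
Psg27, no peak, chr7:18569046-18569065, - strand: agaACTACAGGGAGCAAtat
Psg29, no peak, chr7:17202662-17202681, + strand: tgaTCTCCAGGGGGCGAaaa

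The KO-only peaks near Psg28 and Psg26 are a pair of nearly identical copies, 99.5% over the searched sequence, with the same motif, and 92.9% and 81.7% of the words around it are repeated. Their pileups were 17 and 12 fragments, and the part of repeated words in these was not tested. At 2 further copies, 18300 and 8637 bp from Psg28 and Psg26, the core has G14A and C15T and no peak was listed.
Near Psg28, KO-only, chr7:18396736-18396755, - strand: acgTCACTAGATGGCGCtaa
Near Psg26, KO-only, chr7:18458378-18458397, - strand: acgTCACTAGATGGCGCtaa
Near Psg26, no peak, chr7:18465935-18465954, - strand: ccgTCACTAGATGATGCtaa

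A site recurs among the Prl genes. The third strong peak between Prl2c3 and Prl2c2, the edge peak beyond Prl2c5 and the second peak of the Prl cluster, for which Prl4a1 is the nearest member, have the same 20 bases, tggCCAGAAGAGGGCATcca, and the last 2 align with 98.0% and 90.1% identity to the first. Their pileups were 138, 57 and 67 in Setdb1 KO and 112, 35 and 48 in WT. All 3 are thus shared sites, and their repeated words (65.1%, 68.0% and 17.2%) differ. The sites before Ceacam1 and Ceacam2 also have the same 20 bases, while that of Ceacam10 differs at G14A, C15G, G16C, A17C and A19C and still had a shared peak.
Ceacam2, chr7:25541640-25541659, - strand: tgaACACCAGGGGGCGAaat
Ceacam1, chr7:25479627-25479646, - strand: tgaACACCAGGGGGCGAaat
Ceacam10, chr7:24776337-24776356, + strand: tgaACACCAGGGGAGCCact

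Next to Ceacam9 a pair of copies differed in both sequence and peak. The site 2.67 kb from the gene had 57 fragments in Setdb1 KO against 42 in WT, and the site 9.82 kb from it was KO-only with 13, with C15G in the core and G18A, A19G and G20T beyond it. Neither has repeated words.
Ceacam9, shared, chr7:16728787-16728806, - strand: aagCCACAAGGTGGCGCgag
Ceacam9, KO-only, chr7:16735860-16735879, - strand: aagCCACAAGGTGGGGCagt
Many sites of the Psg sets have scores below the threshold at which a motif was called, so these letters are given as a description of aligned sequence. The 2 remaining sets hold the shared sites 7.53 kb from Psg22 and 8.08 kb from Psg19, whose 20 bases are the same, and the edge sites of Ceacam15 and Ceacam10, which differ by C19T in the site of Ceacam15 relative to that of Ceacam10.

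Beyond Psg16, the promoter letters of the members held no match. RefSeq sequence of 300 bases around the start (GRCm38.p6) was matched for 45 of the 54 genes, not for Psg16, and none held a CTCF motif on either strand at the threshold used under summits. Of 27025 genes with such a sequence, 6.26% held one. On the edges of the clusters, 14 of the 30 summits with a motif had it on the strand that points into the cluster (46.7%, interval 30.2 to 63.9).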

How the data were processed

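CTCF ChIP-seq peak lists of Setdb1 KO and WT ESCs, 1 library each, were analysed. The submitters' processing notes name mm10, Bowtie 1.2, Picard and MACS2 2.1.0, and the methods state unique alignment with up to 3 mismatches and q of 0.05. Columns deposited for each peak are the authors' fold enrichment, a ratio of pileup to background, the authors' p and q as -log10 values, the authors' score, and the offset of the summit. The score was not used in a result. Pileup and background were solved from fold enrichment and p (tolerance 0.001), which succeeded for 99.99% of Setdb1 KO and 100% of WT peaks. The lowest background corresponded to 27.6 M tags in Setdb1 KO and 27.4 M in WT. These depths set the counting error of each pileup. Intervals cover counting error only, and no p-value was computed.

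The CTCF matrix came from 261 seed matches in shared Setdb1 KO peaks outside the clusters, the top 1000 by -log10 q. A motif was called above the 99th percentile of windows 1 kb to the left. Copies were found with BLASTN 2.17.0+, and the 20 bases were followed with at most 5 mismatches. Words of 32 bases were counted over the genome. Scripts ran in Python 3.11.15 with scipy 1.17.1, numpy 2.4.6, matplotlib 3.10.9 and pandas 2.3.3. Steps were tested on simulated data.

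The members and lists were chosen with earlier results of these data known. Named peaks were, per cluster, the strongest on each edge and the 3 strongest inside, the 8 strongest KO-only peaks, all WT-only peaks, the 4 highest and 4 lowest ratios, peaks in members or within 1 kb of their starts, and copied sites. Peaks between the windows, and the other KO-only and edge peaks described, were chosen after their values were seen. The alternatives changed the overlap, the thresholds, the list length, the windows, the joining of genes, the motif and the families. The second libraries, the other assays and the other cell lines of the study were not analysed here.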

Additional observations from a re-analysis of the deposited data

How the results depend on the processing

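Of 83 values under alternatives, 58 stayed within their interval or, for counts, within 1.5 times. A reversal was defined only for the median pileup ratio, which stayed above 1. The order of the KO-only shares inside and on the edges did change. It was 29.7% inside against 22.2% on the edges as reported. With a window of 10 kb it was 16.7% against 28.6%, and in lists of equal length 7.41% against 8.57%. Inside stayed the higher under the other alternatives that gave both. With a reciprocal overlap of 50% there were 8 WT-only peaks, and with summits within 100 bp 6. Keeping only peaks with -log10 q of 5 or more, there were 11 KO-only peaks (15.7%, interval 9.01 to 26.0) and 1 WT-only peak. In the whole list 26.6% were then KO-only, above that interval. With a fold enrichment of at least 5 there were 12 KO-only peaks (18.5%), a setting at which the whole list was not counted. In lists of equal length there were 5 KO-only peaks (8.06%, 7.41% inside and 8.57% on the edges), beside 11.7% of the whole list, and 7 WT-only peaks. With Setdb1 KO pileups divided by the genome median ratio there were 5 WT-only peaks. The WT-only share of the whole list was not counted under any alternative overlap, threshold, list length or scaling. Whether these WT-only changes are particular to the clusters was thus not tested. A window of 10 kb gave 8 KO-only peaks (21.1%), 1 WT-only peak, 16.7% KO-only inside and 7.0 edge peaks per 100 kb. A window of 100 kb gave 38 KO-only peaks (26.8%). Both shares stand beside 28.8% of the whole list. The motif share was 69.5% with the threshold at the 95th percentile. It was 43.9% within 100 bp of the summit, where the threshold was set anew on control windows of that width and so was not the same. Prl genes alone had 1 KO-only peak, a median ratio of 1.65, a motif share of 66.7%, and 0.161 interior and 0.50 edge peaks per 100 kb. Psg and Ceacam genes alone had 2.87 interior peaks per 100 kb. The number of peaks that enter changes by construction under the thresholds, windows and families, and the motif shares moved with the motif threshold. The cause of the other changes was not tested. No paired analysis was possible because the peak list of 1 library per condition was analysed. With 27.6 M tags in Setdb1 KO and 27.4 M in WT, a difference between the libraries of less than the interval of a single site was not detectable.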
